A study of Mus musculus with 6 samples.

Results

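The genes described here serve the unfolded protein response of the endoplasmic reticulum (ER) and the amino acid stress response. They were chosen by name, as ER chaperones, genes of the ATF6 and XBP1 branches, and genes of the ATF4 branch with serine synthesis. Of 34 genes listed, 33 had a row with 1 gene symbol among the 19933 genes measured. Vldlr-as had none and is not analysed here. Dnajc3 was the only member with several rows. The row with the highest mean was to be used, and its 2 rows held the same values.

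The hearts were taken from mouse embryos at E12.5, a stage of mid-gestation at which the mutants have no obvious defect yet. Hearts labelled knockout (KO) for β1 integrin, a shared chain of receptors that attach cells to collagen, laminin and fibronectin, were compared with wild-type (WT) hearts, 3 samples in each group. The labels give no strain, no promoter or Cre for the deletion, and no word on pooling, so a heart below means a sample, which may hold several organs. RNA of the whole organ was read on Affymetrix Mouse Gene 1.0 ST arrays, which give 1 log2 signal for each of 28767 transcript clusters. In bulk RNA, fewer cells of a type and less RNA per cell cannot be told apart.

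Proteins that fold poorly in the ER are sensed by 3 membrane proteins, encoded by Atf6, Ern1 (IRE1) and Eif2ak3 (PERK). ATF6 and the XBP1 protein made after IRE1 splices its message raise the genes of ER chaperones, which fold secreted and matrix proteins. PERK, like other kinases that sense lack of amino acids or heme, slows protein synthesis and raises translation of ATF4, whose targets make, import and spare amino acids. A fetal heart, which makes matrix and membrane proteins while it grows, has use for both arms.

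The promoters of the members were searched for the elements through which each arm is known to be driven. ATF6 is known to act through the ER stress response element (ERSE), which is CCAAT and CCACG with 9 bases between them, and ATF4 with C/EBP partners through a composite site (CARE), searched here as TGATGNAA. Both were searched on both strands of RefSeq promoters of build GRCm38.p6, from 250 bases before to 50 after each start, and 31 of the 33 measured members had one. An ERSE match stood in 8 of 14 promoters of the chaperone arm, in 0 of 3 of the sensors and in 0 of 14 of the ATF4 arm, against 0.119% of all 32851 promoters. A CARE match stood in 4 of 14 promoters of the ATF4 arm (Trib3, Asns, Chac1 and Slc7a11) and in 1 of 14 of the chaperone arm (Herpud1), against 3.97% of all promoters. TGACGTGG, a letter string of the XBP1 element UPRE, was found in 0 member promoters, against 0.676% of all promoters. A match is a description of the letters and not of binding.

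The ERSE matches of the chaperone arm are shown with 10 bases on either side, the CCAAT and CCACG in capitals, each read on the strand on which the element runs as spelled, because they are the letters that 8 of its promoters have in common. CCAAT also counts alone as a common promoter box, found in 37.4% of all promoters.
Hspa5, chr2:34772015-34772053, plus strand: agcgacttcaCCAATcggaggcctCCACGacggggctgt
Hsp90b1, chr10:86705628-86705666, minus strand: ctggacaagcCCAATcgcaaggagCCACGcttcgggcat
Hsp90b1, chr10:86705523-86705561, plus strand: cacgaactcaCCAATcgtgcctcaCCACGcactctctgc
Calr, chr8:84847065-84847103, plus strand: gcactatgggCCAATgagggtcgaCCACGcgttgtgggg
Canx, chr11:50325790-50325828, minus strand: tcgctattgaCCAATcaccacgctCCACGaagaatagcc
Pdia6, chr12:17266481-17266519, plus strand: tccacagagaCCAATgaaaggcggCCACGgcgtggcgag
Dnajc3, chr14:118937817-118937855, plus strand: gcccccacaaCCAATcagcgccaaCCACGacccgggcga
Creld2, chr15:88819510-88819548, minus strand: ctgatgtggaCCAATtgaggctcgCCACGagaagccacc
Syvn1, chr19:6046522-6046560, plus strand: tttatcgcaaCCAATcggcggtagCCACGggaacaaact

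The CARE matches that lie before a start are shown in the same way, with the 8 letters of the site in capitals. The match of Trib3 lies after its start and is not shown. Slc7a11, the cystine importer, holds 2 matches.
Asns, chr6:7693215-7693242, minus strand: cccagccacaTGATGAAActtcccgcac
Chac1, chr2:119351039-119351066, minus strand: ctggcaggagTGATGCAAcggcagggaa
Slc7a11, chr3:50443662-50443689, minus strand: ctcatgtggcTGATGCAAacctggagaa
Slc7a11, chr3:50443643-50443670, plus strand: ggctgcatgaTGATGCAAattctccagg
Herpud1, chr8:94386307-94386334, minus strand: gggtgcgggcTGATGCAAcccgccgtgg

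Sdf2l1 and Phgdh, the members whose signal was lowest in the knockout relative to wild type, have neither motif in the window searched. Their last 160 bases before the start are shown with CCAAT and CCACG on either strand (reverse ATTGG and CGTGG) in capitals. Sdf2l1 holds 2 of each, in other spacings than the ERSE, and Phgdh holds 1 CCAAT.
Sdf2l1, chr16:17132384-17132543, minus strand: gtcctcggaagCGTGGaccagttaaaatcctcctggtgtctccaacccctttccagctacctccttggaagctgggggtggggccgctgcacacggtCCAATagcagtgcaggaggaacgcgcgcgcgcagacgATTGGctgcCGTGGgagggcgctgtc
Phgdh, chr3:98339970-98340129, minus strand: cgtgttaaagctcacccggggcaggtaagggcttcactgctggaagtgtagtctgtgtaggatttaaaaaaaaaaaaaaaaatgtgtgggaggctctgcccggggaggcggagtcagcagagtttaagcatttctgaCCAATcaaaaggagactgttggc

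The hearts themselves come first, because 1 of them stands apart. Itgb1 signal was 11.53, 11.42 and 11.65 in knockout hearts, against 11.76, 11.80 and 11.78 in wild-type hearts, with no overlap, as for 12.6% of all clusters. The knockout kept 84.0% of the wild-type Itgb1 signal (limma, adjusted p = 0.797). The labels do not say whether the Itgb1 probes lie in the deleted part, so the signal may not check the deletion. All 6 cardiomyocyte markers, Tnnt2 and Actc1 among them, lay above the 93.6th percentile of cluster levels. Knockout replicate 1 was more than 0.5 (log2) from the wild-type mean for 8.36% of clusters, against 2.12% and 2.83% in knockout replicates 2 and 3, and limma gave it the lowest array weight (0.350, against 0.536 to 2.98 for the others). All 10 hypoxia response genes listed, 7 of 7 erythroid and 4 of 4 platelet genes measured were highest in it. The mean of the hypoxia list lay 1.64 (log2) above the wild-type mean in knockout replicate 1, that of the erythroid list 1.30 and that of the platelet list 2.42. Results for the members as a set, for the arms and for many single genes are therefore given with and without this heart. Elsewhere the values are from all hearts unless stated.

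None of the members passed limma's test over all clusters (Benjamini-Hochberg adjustment). The adjusted p of the members lay between 0.797 and 0.986, and 0.0% of all 28767 clusters passed, the smallest adjusted p being 0.601. At an unadjusted p under 0.05 there were 2 of 33 members, Sdf2l1 and Phgdh, both lower in the knockout, against 5.93% of all clusters. The knockout hearts did not overlap the wild-type hearts for 5 of 33 members, against 12.6% of all clusters. Atf6 and Trib3 lay above, against 6.01% of all clusters, and Sdf2l1, Creld2 and Phgdh below, against 6.61%. Of the 33, 19 were higher and 14 lower by their means, against 46.6% of all clusters higher and 53.4% lower, with a median difference of 0.03 (log2) beside -0.01 over all clusters. A difference here is the mean of the knockout hearts less that of the wild-type hearts (log2), and its error is limma's moderated standard error (SE). With knockout replicate 1 left out, 0 members and 0.00348% of all clusters passed, and 4 members lay above and 5 below all wild-type hearts, against 20.5% of all clusters without overlap. The median SE over all clusters was 0.11, so that differences of a few hundredths are smaller than the usual SE of a difference.

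**Figure D1:**
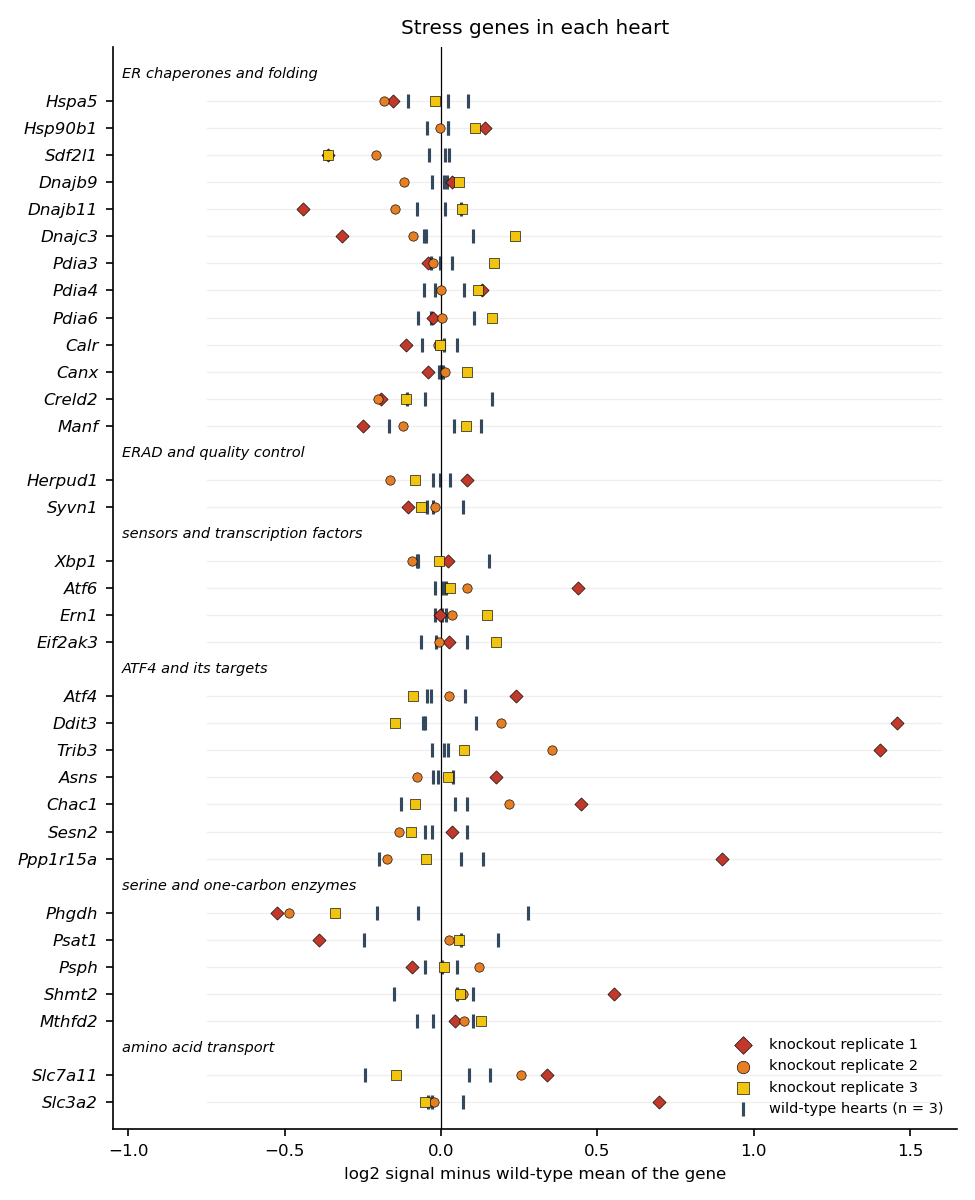
Log2 signal of each of the 33 measured genes in each heart, minus the mean of the 3 wild-type hearts for that gene. Diamonds, circles and squares are knockout replicates 1, 2 and 3, and vertical ticks are wild-type hearts. Ddit3, Trib3 and Ppp1r15a in knockout replicate 1 lie at 1.46, 1.40 and 0.90, while Sdf2l1 and Phgdh lie left of all wild-type ticks in every knockout heart.

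Among the ER chaperones and folding factors, Sdf2l1 and Creld2 had all knockout hearts below all wild-type hearts, Creld2 only just. Sdf2l1 had the larger difference. Sdf2l1 encodes a partner of ER-resident DnaJ chaperones that keeps unfolded proteins from aggregating. Its signal was 8.56, 8.71 and 8.56 in knockout hearts, against 8.95, 8.94 and 8.88 in wild-type hearts. Each knockout heart lay below each wild-type heart, and the gap between the groups exceeded the range within the wild-type group. The means were 8.61 ± 0.09 in the knockout and 8.92 ± 0.03 in wild type (SD, n = 3 each), a difference of -0.31 ± 0.08 (SE) that left 80.6% of the wild-type signal (limma, adjusted p = 0.797). An exact permutation test of the 6 hearts (two-sided) gave p = 0.1, below which a design of this size cannot go. Any gene without overlap between the groups has this p, so the test adds nothing to the lack of overlap. The difference was nearly as large without knockout replicate 1, at -0.29 ± 0.09.

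Creld2, an ER protein induced with the chaperones, had a signal of 8.552, 8.542 and 8.633 in knockout hearts, against 8.906, 8.694 and 8.634 in wild-type hearts. The groups touched without overlapping, and wild-type replicate 1 was the highest heart. The difference was -0.17 ± 0.10 (SE), -0.16 ± 0.11 without knockout replicate 1 and -0.09 without wild-type replicate 1.

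Hspa5, which encodes BiP, the main ER chaperone and the textbook readout of this response, had a signal of 12.11, 12.08 and 12.25 in knockout hearts, against 12.35, 12.29 and 12.16 in wild-type hearts. The groups overlapped, since knockout replicate 3 lay above wild-type replicate 3, and the difference was -0.12 ± 0.09 (SE). Hsp90b1, the ER member of the HSP90 family, stood on the other side, at 12.53, 12.38 and 12.49 in knockout hearts, against 12.41, 12.41 and 12.34 in wild-type hearts. Its difference was 0.08 ± 0.08. The 2 thus stood on opposite sides of 0, and the hearts of the groups overlapped for both.

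Of the chaperone arm, 2 DnaJ cochaperones of BiP varied most between the knockout hearts. Dnajb11 had a signal of 9.28, 9.58 and 9.79 in knockout hearts, against 9.79, 9.74 and 9.65 in wild-type hearts, a difference of -0.17 ± 0.13 (SE). Knockout replicate 1 was the lowest heart and knockout replicate 3 the highest, so the knockout range enclosed the wild-type one. It was -0.04 without knockout replicate 1. Dnajc3, which encodes the cochaperone and PERK inhibitor p58IPK, had the same shape, at 9.36, 9.59 and 9.92 in knockout hearts, against 9.78, 9.63 and 9.63 in wild-type hearts. Its difference was -0.06 with all hearts and 0.07 without knockout replicate 1. Dnajb9, which encodes ERdj4, stood at -0.01.

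The other folding genes differed by less than their standard errors. These were the disulfide isomerase genes Pdia3 (0.03 ± 0.09), Pdia4 (0.08 ± 0.09) and Pdia6 (0.05 ± 0.09), the lectin chaperone genes Calr (-0.04 ± 0.08) and Canx (0.02 ± 0.08), and Manf, a secreted BiP-binding factor (-0.10 ± 0.12). Manf stood at -0.02 without knockout replicate 1. Over all 13 chaperones and folding factors, 5 were higher and 8 lower, with 2 of 13 below all wild-type hearts, against 6.61% of all clusters, and 0 above, against 6.01%. Of the 15 genes that also count degradation, knockout replicate 1 was the lowest heart for 8, against 27.0% of all clusters, and knockout replicate 3 the highest for 6, against 16.7% of all clusters.

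The 2 genes of ER-associated degradation, which removes proteins that fail to fold, differed little. Herpud1, which gathers the degradation complex, had a signal of 9.69, 9.45 and 9.53 in knockout hearts, against 9.59, 9.64 and 9.61 in wild-type hearts, a difference of -0.05 ± 0.09 (SE). Knockout replicate 1 was the highest heart and the other knockout hearts the lowest, and without it the difference was -0.12 ± 0.08. Syvn1, the ubiquitin ligase HRD1, stood at 8.0, 8.09 and 8.04 in knockout hearts, against 8.18, 8.08 and 8.06 in wild-type hearts, a difference of -0.06 ± 0.08. Both genes thus stood lower by their means, with overlap.

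The members of the chaperone arm with and without an ERSE match covered similar ground. With a match, 3 of 8 were higher and 5 lower, and the differences ran from -0.17 to 0.08 with a median of -0.05. Without one, 2 of 6 were higher and 4 lower, from -0.31 to 0.08 with a median of -0.03. The lowest of the second set was Sdf2l1, shown above with its upstream bases.

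**Figure D2:**
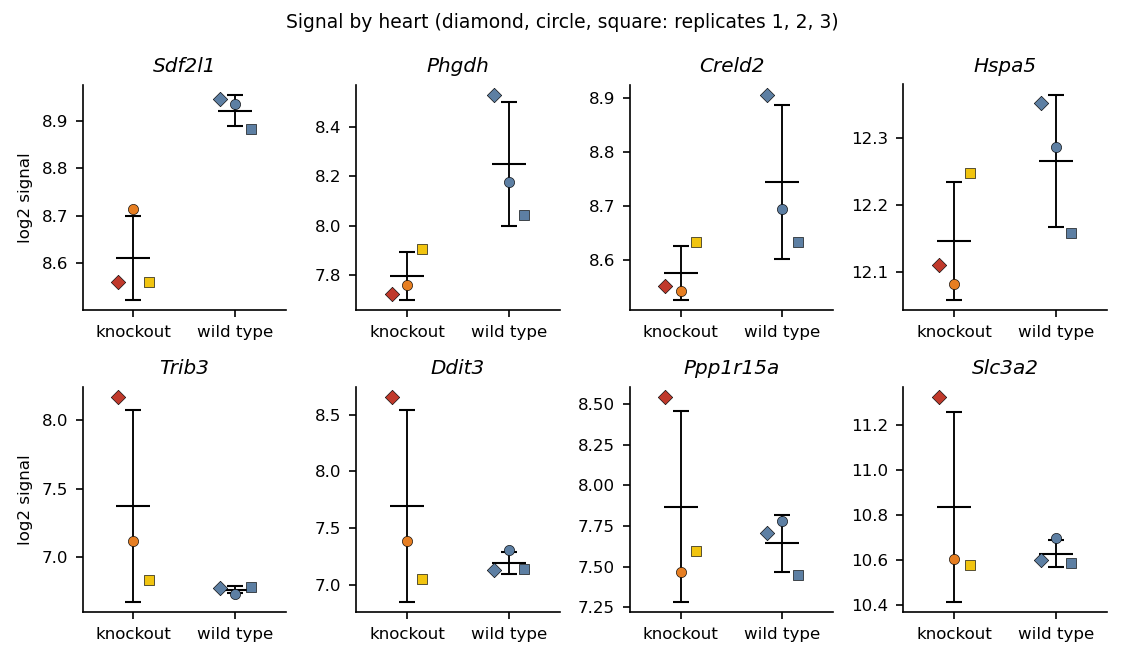
Log2 signal of 8 genes, with knockout hearts left and wild-type hearts right in each panel and bars for the mean ± SD (n = 3). The axes do not start at 0. The top row holds genes whose knockout mean is lower, Sdf2l1, Phgdh and Creld2 with no overlap. The bottom row holds genes whose highest heart is the diamond of knockout replicate 1, such as Ddit3 at 8.66.

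Of the sensors and transcription factors, Atf6 was higher in each knockout heart, though by little in 2 of them. Its signal was 9.19, 8.84 and 8.78 in knockout hearts, against 8.77, 8.76 and 8.74 in wild-type hearts. The groups did not overlap, and knockout replicate 1 lay far above the rest. The difference of 0.18 ± 0.12 (SE) was 0.06 ± 0.08 without that heart. Ern1 had a signal of 7.44, 7.48 and 7.59 in knockout hearts, against 7.46, 7.42 and 7.45 in wild-type hearts (0.06 ± 0.08), and Eif2ak3 had 8.22, 8.19 and 8.37 in knockout hearts, against 8.28, 8.18 and 8.13 in wild-type hearts (0.06 ± 0.09). Xbp1, whose array value does not tell its spliced from its unspliced message, had 9.59, 9.47 and 9.56 in knockout hearts, against 9.72, 9.49 and 9.49 in wild-type hearts (-0.03 ± 0.10). The hearts of the groups overlapped for these 3.

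In the ATF4 arm, 11 of 14 members were higher and 3 lower by their means, and the 5 largest of the higher ones were farthest from wild type in knockout replicate 1. That heart was the highest of the 6 for 9 of 14 members, against 24.4% of all clusters, and more than 0.5 (log2) above the wild-type mean for 5 of 14, against 5.09% of all clusters. Knockout replicates 2 and 3 passed that mark for 0 of 14 each, against 1.44% and 1.85% of all clusters. Without knockout replicate 1, 8 members were higher and 6 lower. With all hearts, the 4 members of this arm with a CARE match were all higher, from 0.04 to 0.61 with a median of 0.17. Of the 10 of the arm without one, 7 were higher and 3 lower, from -0.45 to 0.50 with a median of 0.07. Without knockout replicate 1, the 4 stood at 0.21 (Trib3), -0.03 (Asns), 0.07 (Chac1) and 0.06 (Slc7a11). Herpud1 of the chaperone arm, which also has a match, was lower, at -0.05 with all hearts and -0.12 without that heart. Trib3, Asns, Chac1 and Slc7a11, the 4 of the ATF4 arm with a match, were each highest in knockout replicate 1. So were Atf4, Ddit3, Ppp1r15a, Shmt2 and Slc3a2, which have no match. The part of the motif was not tested.

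Atf4 itself, which is governed mainly by translation, had a signal of 8.81, 8.59 and 8.48 in knockout hearts, against 8.52, 8.65 and 8.54 in wild-type hearts. Knockout replicate 1 was the highest and knockout replicate 3 the lowest heart, and the difference of 0.06 ± 0.11 (SE) was -0.03 without replicate 1. Ddit3, which encodes CHOP, a transcription factor of prolonged ER stress, had 8.66, 7.39 and 7.05 in knockout hearts, against 7.14, 7.31 and 7.14 in wild-type hearts. In knockout replicate 1 this was 2.75 times the wild-type mean, while the other knockout hearts lay on either side of the wild-type range. Its difference was 0.50 ± 0.36 with all hearts and 0.02 ± 0.12 without that heart.

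Trib3, a pseudokinase induced by ATF4 and CHOP that damps both, was the member with the largest difference. Its signal was 8.17, 7.12 and 6.84 in knockout hearts, against 6.77, 6.74 and 6.79 in wild-type hearts. All knockout hearts lay above the wild-type hearts, knockout replicate 1 at 2.65 times the wild-type mean and knockout replicate 3 by little. The means were 7.38 ± 0.70 in the knockout and 6.77 ± 0.03 in wild type (SD, n = 3 each), a difference of 0.61 ± 0.30 (SE; limma, adjusted p = 0.797). The exact permutation test (two-sided) again gave p = 0.1, as for any gene without overlap. The difference was 0.21 ± 0.11 without knockout replicate 1, and both remaining knockout hearts still lay above wild type.

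Ppp1r15a, which encodes the phosphatase subunit GADD34 that restores protein synthesis, had a signal of 8.54, 7.47 and 7.59 in knockout hearts, against 7.71, 7.78 and 7.45 in wild-type hearts. Only knockout replicate 1 lay outside the wild-type range, at 1.87 times the wild-type mean, and the difference of 0.23 ± 0.27 (SE) was -0.11 ± 0.12 without it. Chac1, a glutathione-degrading enzyme, had 7.15, 6.92 and 6.62 in knockout hearts, against 6.75, 6.58 and 6.79 in wild-type hearts. The groups overlapped, and the difference was 0.19 ± 0.14, and 0.07 without knockout replicate 1.

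The other ATF4 targets did not share this shape to the same degree. Asns, asparagine synthetase, had a signal of 9.50, 9.24 and 9.34 in knockout hearts, against 9.31, 9.36 and 9.29 in wild-type hearts. Knockout replicate 1 lay 0.17 above the wild-type mean, and the difference was 0.04 ± 0.09 (SE). Sesn2, a leucine-sensing inhibitor of mTORC1, stood at -0.06 ± 0.09.

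The enzymes that make serine and carry its 1-carbon units were split. Phgdh, phosphoglycerate dehydrogenase, which takes glycolytic carbon into serine, was lower in each knockout heart. Its signal was 7.72, 7.76 and 7.91 in knockout hearts, against 8.53, 8.18 and 8.04 in wild-type hearts. The groups did not overlap, and the wild-type hearts were the more spread. The means were 7.80 ± 0.10 in the knockout and 8.25 ± 0.25 in wild type (SD, n = 3 each), a difference of -0.45 ± 0.13 (SE) that left 73.2% of the wild-type signal (limma, adjusted p = 0.797). The exact permutation test (two-sided) gave p = 0.1, which the lack of overlap fixes. Without knockout replicate 1 the difference was -0.41 ± 0.15, and without wild-type replicate 1, the highest heart, it was -0.31.

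The enzymes after Phgdh in the serine pathway stood nearer to wild type. Psat1, the next enzyme, had a signal of 8.98, 9.40 and 9.43 in knockout hearts, against 9.55, 9.44 and 9.13 in wild-type hearts. Knockout replicate 1 was the lowest heart, the groups overlapped, and the difference of -0.10 ± 0.16 (SE) was 0.04 without it. Psph, the last enzyme, stood at 0.01 ± 0.09.

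The mitochondrial folate enzymes overlapped between the groups. Shmt2, which splits serine, had a signal of 9.47, 8.99 and 8.98 in knockout hearts, against 9.02, 8.97 and 8.77 in wild-type hearts, a difference of 0.23 ± 0.15 (SE). Knockout replicate 1 lay 0.55 above the wild-type mean, the other knockout hearts lay inside the wild-type range, and without replicate 1 the difference was 0.07. Mthfd2 had 8.29, 8.32 and 8.37 in knockout hearts, against 8.35, 8.22 and 8.17 in wild-type hearts (0.08 ± 0.09).

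For amino acid transport, Slc3a2, the shared heavy chain of several amino acid exchangers, followed knockout replicate 1. Its signal was 11.32, 10.61 and 10.58 in knockout hearts, against 10.60, 10.70 and 10.59 in wild-type hearts. The first of these was 1.62 times the wild-type mean, and the difference of 0.21 ± 0.19 (SE) was -0.04 without it. Slc7a11, the cystine importer that pairs with it, was the dimmest member, at 5.09, 5.01 and 4.61 in knockout hearts, against 4.84, 4.51 and 4.91 in wild-type hearts (0.15 ± 0.16). It lay at the 19.5th percentile of cluster levels, and the other 32 members lay at or above the median level.

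**Figure D3:**
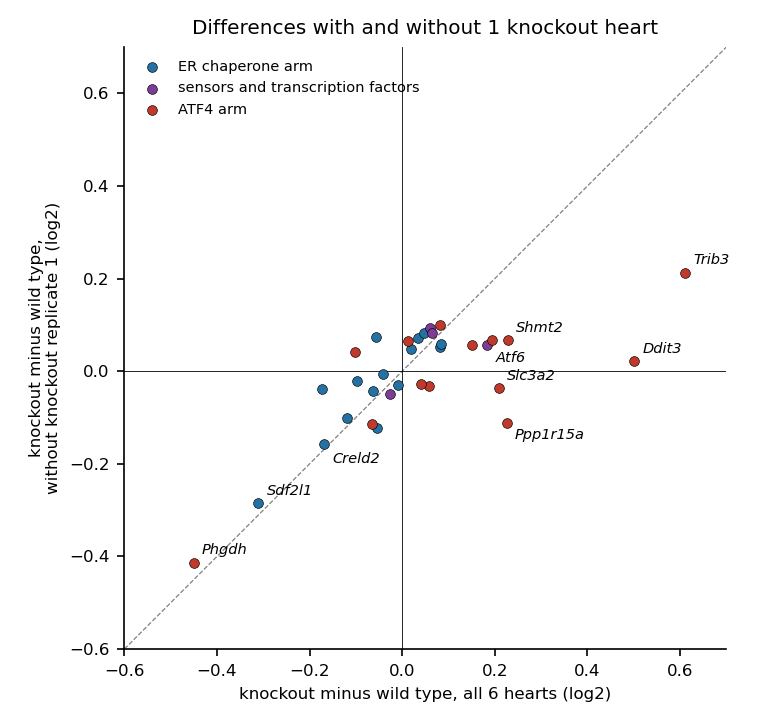
Difference of each gene (knockout minus wild type, log2) with all 6 hearts on the horizontal axis and without knockout replicate 1 on the vertical axis. The dashed line marks equal values. Sdf2l1, Creld2 and Phgdh lie near it, and Ddit3 (0.50 with that heart, 0.02 without) and Ppp1r15a (0.23 and -0.11) lie far below it.

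The chaperone arm was set against the ATF4 arm within each heart. The mean of the 15 chaperone and degradation genes, relative to its wild-type mean, was -0.11, -0.09 and 0.03 (log2) in knockout replicates 1 to 3, against 0.06, 0.00 and -0.06 in wild-type replicates 1 to 3. Knockout replicates 1 and 2 lay below all wild-type hearts and replicate 3 lay within their range. The mean of the 14 ATF4 arm genes was 0.38, 0.03 and -0.05 in knockout replicates 1 to 3, against 0.05, 0.01 and -0.06 in wild-type replicates 1 to 3. Knockout replicate 1 stood alone above the others.

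The knockout minus wild-type difference was -0.06 for the chaperone arm and 0.12 for the ATF4 arm, and the difference between the arms was -0.18. Without knockout replicate 1 these were -0.03, -0.01 and -0.02. With the median of each arm's genes in place of the mean, all hearts gave 0.0077 for the chaperone arm, on the other side of 0, 0.037 for the ATF4 arm and -0.03 between them. Within the hearts, the chaperone arm minus the ATF4 arm, relative to wild type, was -0.49, -0.12 and 0.08 in knockout replicates 1 to 3, against 0.01, -0.02 and 0.00 in wild-type replicates 1 to 3. This gap thus varied little among the wild-type hearts and was farthest from wild type in knockout replicate 1. It lay in opposite directions in knockout replicates 2 and 3. The arm means rest on genes chosen with earlier results known, and no test was made on them.

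**Figure D4:**
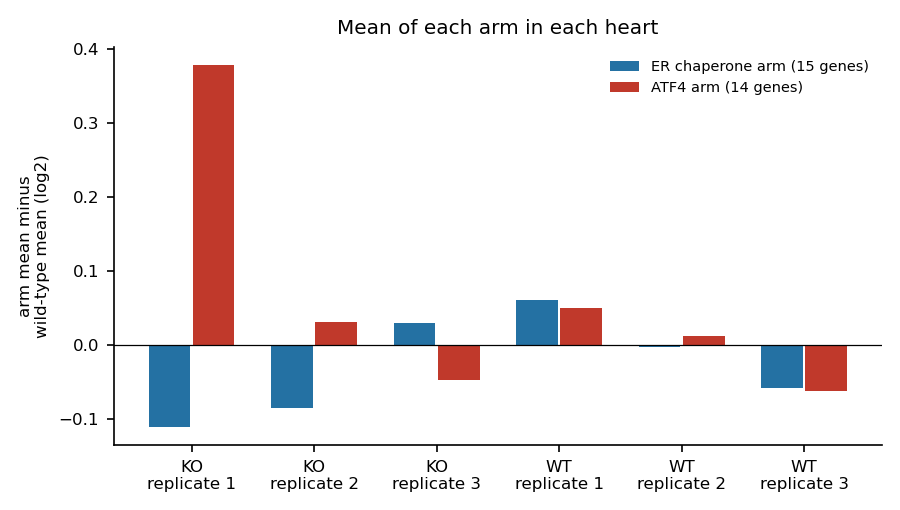
Mean of the ER chaperone arm (15 genes, blue) and of the ATF4 arm (14 genes, red) in each heart, minus the mean of the wild-type hearts (log2), with knockout hearts left. The red bar of knockout replicate 1 reaches 0.38 beside a blue bar at -0.11, and the other bars lie between -0.09 and 0.06.

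Further genes of the same pathways were read from 2 other lists. Of 42 other genes of ER stress and ER-associated degradation, 24 were higher and 18 lower, 0 passed limma's test and 2 had an unadjusted p under 0.05, against 5.93% of all clusters. The knockout hearts lay above all wild-type hearts for 6 of them, against 6.01% of all clusters, and below for 0, against 6.61%. The median difference was 0.01 (log2), beside -0.01 over all clusters. Sec63, a subunit of the ER import channel, had a signal of 9.46, 9.35 and 9.47 in knockout hearts, against 9.18, 9.14 and 9.19 in wild-type hearts, with no overlap and a difference of 0.26 ± 0.08 (SE; limma, adjusted p = 0.797). It stood at 0.24 without knockout replicate 1. Creb3l2, an ER stress transducer that raises the secretory machinery, stood at 0.40 ± 0.13, and 0.28 without that heart. Sil1, the nucleotide exchange factor of BiP, stood at 0.16 ± 0.08, and 0.19 without it. Ero1a, the oxidase that recharges disulfide isomerases and also responds to low oxygen, had 11.65, 10.15 and 10.04 in knockout hearts, against 9.92, 9.81 and 9.77 in wild-type hearts. Its difference of 0.78 ± 0.38 was 0.26 without knockout replicate 1.

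Of 46 other genes of the ATF4 and amino acid response, 23 were higher and 23 lower, and 0 passed limma's test or had an unadjusted p under 0.05. The median difference was 0.00 (log2), and 5 lay above all wild-type hearts, against 6.01% of all clusters, and 0 below, against 6.61%. The secreted glycoprotein gene Stc2 had a signal of 8.33, 7.33 and 7.24 in knockout hearts, against 7.14, 7.11 and 7.01 in wild-type hearts, a difference of 0.54 ± 0.27 (SE) that was 0.19 without knockout replicate 1. The mitochondrial folate gene Mthfd1l differed by 0.32 ± 0.15, the cationic amino acid transporter gene Slc7a1 by 0.27 ± 0.13 and the neutral amino acid transporter gene Slc38a2 by 0.23 ± 0.11. They stood at 0.15, 0.16 and 0.14 without knockout replicate 1. Knockout replicate 1 was the highest heart for 18 of the 46, against 24.4% of all clusters, and the list mean in it lay 0.13 above wild type.

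Markers of other cells and of low oxygen stood high in the same heart as the ATF4 targets. The mean over the 7 genes Atf4, Ddit3, Trib3, Asns, Chac1, Sesn2 and Ppp1r15a lay 0.67, 0.06 and -0.05 (log2) from the wild-type mean in knockout replicates 1 to 3. The hypoxia list of 10 genes lay 1.64, 0.39 and 0.22 from it in the same hearts, with list means of 8.92 to 10.34 in the knockout and 8.67 to 8.72 in wild type. The erythroid list lay 1.30, -0.25 and -0.06 from the wild-type mean, with list means of 9.18 to 10.73 in the knockout and 9.07 to 9.67 in wild type. The platelet list lay 2.42, 0.27 and 0.12 from it, with list means of 6.90 to 9.21 in the knockout and 6.68 to 6.88 in wild type. The part of these in the ATF4 arm was not tested.

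Other marker lists were not highest in that heart. The macrophage list (8 genes) lay 0.12, 0.28 and 0.25 from the wild-type mean in knockout replicates 1 to 3, and the liver list (8 genes) 0.27, 0.50 and 0.61. The liver list means, 5.62 to 5.96 in the knockout and 5.26 to 5.51 in wild type, lay below the median cluster level of 6.67. The list of cushion and epicardial matrix genes (7 genes), whose cells secrete much matrix, lay -0.03, 0.10 and 0.70 from the wild-type mean, and the cardiomyocyte list (6 genes) -0.08, -0.03 and 0.01. Among the knockout hearts, the chaperone arm, at -0.11, -0.09 and 0.03, and the cushion list were both highest in replicate 3, while over all 6 hearts the chaperone arm was highest in wild-type replicate 1, at 0.06. Their relation was not tested. For Sdf2l1 and Phgdh, which were low in all 3 knockout hearts, the list means of the hypoxia, platelet, macrophage and liver genes lay above all wild-type hearts in all 3, and their part was not tested either. By group means, all 10 hypoxia and all 4 platelet genes were higher in the knockout. Of 8 macrophage genes, 7 were higher and 1, Lyz2, was lower (-0.40). Of 8 liver genes, 6 were higher and 2 lower, from -0.09 to 1.57 (Alb) with a median of 0.22. Afp came next to Alb, at 1.20.

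**Figure D5:**
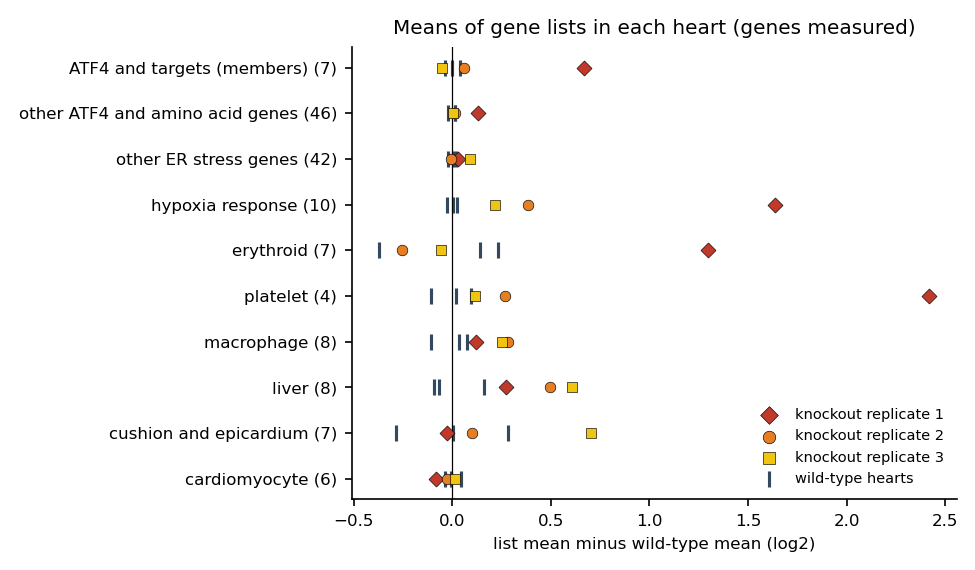
Mean of each gene list in each heart, minus the mean of the wild-type hearts (log2), with the number of genes measured in brackets. Symbols are as in the plot of single genes by heart. The hypoxia, erythroid and platelet lists have the diamond of knockout replicate 1 far right, at 1.64, 1.30 and 2.42. The list of ATF4 and its targets among the members has it at 0.67. The list of other ATF4 and amino acid genes has it at 0.13, and that of other ER stress genes at 0.03.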

How the data were processed

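Values are the deposited log2 signals, made by the authors with RMA (background correction, a common distribution for all arrays, 1 value per transcript cluster), per the submitters' processing notes. The sources used here do not state the RMA version, the probe annotation, the build or a filter. Per the labels, the RNA was total RNA from Trizol, labelled by biotin. A platform annotation named 21776 of 28767 clusters with 1 symbol, of which 21686 matched RefSeq genes of GRCm38.p6 by Entrez identifier. Several symbols stood on 1618 clusters and none on 5373, and these were tested but not named.

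The knockout and wild-type arrays were fitted with limma 3.58.1 in R 4.3.3 (lmFit, eBayes, two-sided, no covariate, no filter), adjusted by Benjamini-Hochberg over all clusters, threshold 0.05. The fit was tested on simulated data. P-values measure the spread between samples, which the design text calls biological replicates. The number of arrays limits the precision. Alternatives were leaving out each heart, a replicate block, array weights, a trended and robust variance, 3 further normalizations, 1 cluster per gene and a dim-cluster filter.

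Members, lists and tests were chosen with earlier results of these data known. All measured members are named. Values in every heart are given for Sdf2l1, Phgdh, Trib3, Hspa5, Hsp90b1, Xbp1, Atf4, Ddit3, Asns and the 4 members of each role with the lowest p, and for Dnajc3, chosen after its values were seen. Of each further pathway list, the 4 genes with the lowest p are named. Vegfa stands in both the hypoxia list and the ATF4 list. Same-numbered hearts were checked for pairing by the correlation of their deviations from the group means over all clusters.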

Additional observations from a re-analysis of the deposited data

How the results depend on the processing

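No member and no gene of the 2 further lists passed limma's test in any of the 14 alternative fits run, and no cluster did except without knockout replicate 1, where leaving out each heart in turn gave 0 to 1 passing clusters. The number of members with no overlap, 5 with all hearts, was 5 to 11 when 1 heart was left out, 9 of them without knockout replicate 1, where 20.5% of all clusters did not overlap, and 4 to 7 in the other alternatives. Fewer hearts make such separation easier. Signs were kept in 440 of 461 member values under these alternatives, with 20 turned and 1 at 0 (Herpud1 without knockout replicate 2). Slc7a11 had no value under the dim-cluster filter. In all alternatives that gave them a value, 20 of 33 members kept their sign, Sdf2l1, Phgdh, Creld2, Trib3 and Ddit3 among them. Sdf2l1 ranged from -0.36 to -0.25, Phgdh from -0.55 to -0.31, Trib3 from 0.21 to 0.88 and Ddit3 from 0.02 to 0.82. With array weights, which give knockout replicate 1 less say, Asns stood at -0.047 and Ppp1r15a at -0.099. Dnajb9 stood at 0.003 with quantile normalization again and at 0.021 with cyclic loess, and Xbp1 at 0.0037 with cyclic loess. When 1 heart was left out, the members whose sign turned ranged from -0.042 to 0.047 (Dnajb9), -0.203 to 0.074 (Dnajc3), -0.034 to 0.071 (Pdia3), -0.011 to 0.10 (Pdia6), -0.014 to 0.048 (Canx), -0.064 to 0.051 (Xbp1), -0.033 to 0.133 (Atf4), -0.027 to 0.099 (Asns), -0.111 to 0.426 (Ppp1r15a), -0.225 to 0.042 (Psat1), -0.042 to 0.065 (Psph) and -0.036 to 0.338 (Slc3a2). Leaving out 1 heart gave -0.10 to -0.02 for the chaperone arm, -0.01 to 0.21 for the ATF4 arm and -0.30 to -0.02 for the arms' difference, the last 2 being -0.01 and -0.02 without knockout replicate 1. With the median of an arm's genes in each heart in place of the mean, the chaperone arm stood at 0.0077 and the ATF4 arm at 0.037.

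Same-numbered knockout and wild-type hearts did not deviate together (correlations of -0.042, -0.026 and -0.056, against -0.034 to 0.075 for different numbers). The check gave no sign of pairing, but with 3 hearts in each group it cannot exclude it. With a replicate block 0 clusters and 0 members passed, and the adjusted p was 0.873 for Sdf2l1 and 0.857 for Phgdh. Over all alternatives limma's adjusted p ran from 0.278 to 0.994 for Sdf2l1 and from 0.258 to 0.994 for Phgdh. The alternatives for the 2 further lists and for the overlap count were added after seeing the data.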
